A study of Mus musculus with 2 samples.

Results

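The 10 antioxidant enzymes described here are the superoxide dismutases Sod1, Sod2 and Sod3, catalase (Cat), the glutathione peroxidases Gpx1, Gpx3 and Gpx4, the peroxiredoxins Prdx1 and Prdx6, and thioredoxin (Txn1). They were taken by name from a table of 43346 gene rows, of which 21474 are annotated as protein coding, and all 10 had a row. The RNA came from whole mouse lung on embryonic day 16.5, strain B6NCrl, with male and female embryos pooled and no treatment, transgene or mutation given. Total RNA-seq was made from 2 such samples, biological replicates 1 and 2 of a single group. Replicate 2 was pooled from 41 embryos, and no number is given for the pool of replicate 1. Each library started from 10 ng of RNA longer than 200 nt. The libraries held 38852470 expected counts in replicate 1 and 27145411 in replicate 2. With a single group there was no condition to compare, so levels, ratios within a library, transcript shares and the spread between the 2 replicates are given.

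These enzymes form relays. Superoxide dismutases turn superoxide into hydrogen peroxide. Catalase then breaks the peroxide down without drawing on glutathione or thioredoxin. The glutathione peroxidases and the peroxiredoxins reduce it, drawing on glutathione or on thioredoxin. GPX1, GPX3 and GPX4 carry selenocysteine, which is read from a TGA codon that would otherwise end translation, while PRDX1, PRDX6 and thioredoxin work through cysteine. In rats and rabbits, antioxidant enzymes of the lung are known to rise late in gestation, ahead of the first breaths of air.

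The catalytic codons are shown first, because the transcript forms described further on differ in whether they hold them. Each line is the sense strand of the principal transcript, read from GENCODE M21 transcript sequences (GRCm38, the build called mm10), with 30 bases on each side of the codon. Capitals mark the selenocysteine codon TGA in the glutathione peroxidases, the peroxidatic cysteine codon in the peroxiredoxins, and both cysteine codons of the active site in thioredoxin.
Gpx1-201: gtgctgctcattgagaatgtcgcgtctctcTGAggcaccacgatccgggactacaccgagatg
Gpx3-201: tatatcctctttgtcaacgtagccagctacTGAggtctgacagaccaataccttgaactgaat
Gpx4-202: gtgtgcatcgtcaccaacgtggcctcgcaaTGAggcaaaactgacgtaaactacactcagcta
Prdx1-204: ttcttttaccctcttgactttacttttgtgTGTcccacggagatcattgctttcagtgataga
Prdx6-202: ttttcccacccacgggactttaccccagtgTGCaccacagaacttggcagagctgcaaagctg
Txn1-201: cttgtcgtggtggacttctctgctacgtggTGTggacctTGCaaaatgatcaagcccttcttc
The codons lie at chr9:108339451-108339453 (plus strand) in Gpx1, chr11:54907256-54907258 (plus) in Gpx3, chr10:80054737-80054739 (plus) in Gpx4, chr4:116691823-116691825 (plus) in Prdx1, chr1:161247368-161247370 (minus) in Prdx6 and chr4:57951830-57951832 (minus) for the first capitals of Txn1. They are codon 47 of Gpx1, 73 of Gpx3, 73 of Gpx4, 52 of Prdx1, 47 of Prdx6 and 32 of Txn1. Position by position, the Gpx1 and Gpx4 windows shared 35 of 63 bases, Gpx3 and Gpx4 shared 29, and Gpx1 and Gpx3 shared 27. Prdx1 and Prdx6 shared 29 of 63.

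Most of the enzymes were abundant. Levels are in TPM, a share of the library's transcripts after division by transcript length, which allows genes to be compared within a library. The median over the 10 enzymes was 389.4 TPM in replicate 1 and 383.6 TPM in replicate 2 (387 ± 4.06 TPM, SD, n = 2), where the median over all protein-coding rows was 4.71 and 5.02 TPM. Of the 10 enzymes, 7 stood at 100 TPM or more in both replicates, as did 3.70% of all gene rows and 7.06% of protein-coding rows. The 3 below that level were Cat, Sod2 and Sod3. Summed, the enzymes made up 0.443% of all TPM in replicate 1 and 0.448% in replicate 2.

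Among the superoxide dismutases, the cytosolic copper and zinc enzyme Sod1 was the most abundant, with TPM values of 1085 in replicate 1 and 1128 in replicate 2 (1107 ± 30.5 TPM, SD, n = 2). It ranked 94th and 84th of all gene rows and lies on chromosome 16 (90220754 to 90226329, plus strand). Sod2, the manganese enzyme of mitochondria, had 32.6 and 33.5 TPM (33.1 ± 0.693, SD, n = 2). Sod1 was 33.5-fold higher than Sod2, a log2 ratio of 5.07 ± 0.01 (SD, n = 2) that was nearly the same in both libraries. Ccs, the chaperone that loads copper into SOD1, stood at 37.7 and 39.6 TPM, and the log2 ratio of Sod1 to Ccs was 4.84 ± 0.01 (SD, n = 2).

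Sod3, the secreted form that binds the extracellular matrix and is known for its high abundance in adult lung, was barely detected. Replicate 1 had 76 expected counts for it, or 0.84 TPM, and replicate 2 had 77, or 1.20 TPM (1.02 ± 0.255 TPM, SD, n = 2). The exact 95% Poisson intervals were 0.662 to 1.05 TPM and 0.947 to 1.5 TPM, which overlap in part and cover counting error only. Sod2 exceeded Sod3 by 5.04 ± 0.33 on the log2 scale, and Sod1 exceeded it by 10.11 ± 0.32 (SD, n = 2 each).

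Catalase, which breaks down hydrogen peroxide in peroxisomes without needing glutathione or thioredoxin, had 91.3 TPM in replicate 1 and 93.6 TPM in replicate 2 (92.4 ± 1.61, SD, n = 2). Gpx1, the glutathione peroxidase of cytosol and mitochondria, was higher at 548 and 601 TPM (575 ± 37.9, SD, n = 2). Gpx4, which reduces lipid hydroperoxides inside membranes, had 482 and 511 TPM (497 ± 20.7, SD, n = 2). Both glutathione peroxidases stood above catalase in both libraries, and the log2 ratio of Gpx1 to Cat was 2.63 ± 0.07 (SD, n = 2). Gpx3, the secreted glutathione peroxidase of plasma, had 169 TPM in replicate 1 and 152 TPM in replicate 2 (161 ± 12.5, SD, n = 2). Gpx3 was the only secreted enzyme of the list with more than a trace of mRNA, and Gpx1 exceeded it by 1.84 ± 0.21 on the log2 scale (SD, n = 2).

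Prdx1, a cytosolic peroxiredoxin that takes electrons from thioredoxin, had the highest TPM of the 10 enzymes, at 1243 in replicate 1 and 1191 in replicate 2 (1217 ± 36.7, SD, n = 2). Prdx6, which works through a lone catalytic cysteine and also has a phospholipase activity known from the turnover of surfactant lipid, had 381 and 396 TPM (388 ± 10.7, SD, n = 2). Prdx1 stood above Prdx6 in both libraries, by 1.65 ± 0.08 on the log2 scale (SD, n = 2). Txn1, the small cytosolic electron carrier, had 398 TPM in replicate 1 and 371 TPM in replicate 2 (385 ± 18.8, SD, n = 2). It exceeded its mitochondrial counterpart Txn2 by 1.32 ± 0.08 and its reductase Txnrd1 by 2.36 ± 0.03 on the log2 scale (SD, n = 2 each).

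**Figure D1:**
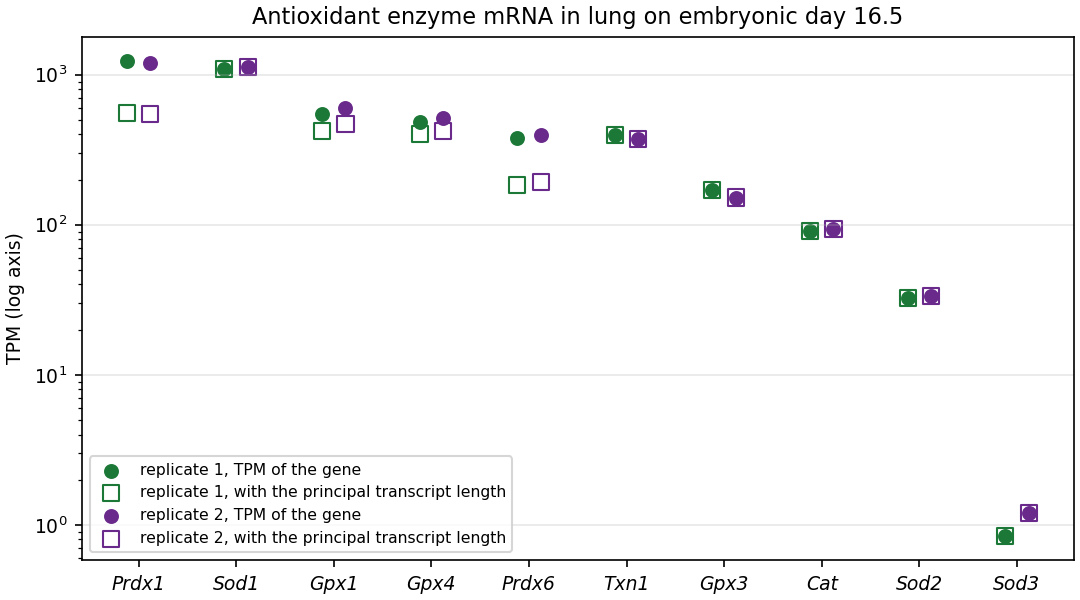
TPM (log axis) of each enzyme in replicate 1 (green) and replicate 2 (purple); filled circles are the gene's TPM and open squares the level recomputed with the length of the principal transcript. Levels run from 1217 TPM for Prdx1 to 1.02 TPM for Sod3, the replicates lie close together, and the open squares of Prdx1 and Prdx6 drop to 554 and 189 TPM.

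The order of the gene levels was Prdx1, Sod1, Gpx1, Gpx4, Prdx6, Txn1, Gpx3, Cat, Sod2 and Sod3. Neighbours were called apart where both libraries gave the same order and the mean log2 ratio exceeded 2 SD. By that rule Prdx1 and Sod1 did not differ beyond their spread (log2 ratio 0.14 ± 0.08, SD, n = 2). Prdx6 and Txn1 did not either, since Txn1 was higher in replicate 1 and Prdx6 in replicate 2. The other 7 pairs of neighbours were apart, from 0.21 ± 0.04 between Gpx1 and Gpx4 to 5.04 ± 0.33 between Sod2 and Sod3 (log2 ratio, SD, n = 2).

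Part of that order rests on which transcript length the counts are divided by. The gene level adds up the estimates of all transcripts, and a short transcript turns the same reads into more TPM. With the length of the principal transcript in its place, an alternative added after the data were seen, Prdx1 had 558 and 549 TPM (554 ± 6.22, SD, n = 2) and fell below Sod1 by 1.00 ± 0.06 on the log2 scale. Prdx6 had 185 and 193 TPM (189 ± 5.46, SD, n = 2), below Txn1 by 1.03 ± 0.11 on the log2 scale. Gpx1 and Gpx4 became 446 ± 34.4 and 412 ± 15.1 TPM (SD, n = 2 each) and were no longer apart. For Sod1, Sod2, Sod3, Cat, Gpx3 and Txn1 that length could not change the level, because the principal transcript held all of the gene's TPM. The alternative therefore does not test their dependence on length.

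Of 20 ratios chosen from the enzymes and their partners, the sign held in 20, by the same rule as for neighbours. Ratios within a library do not depend on how the library was scaled. The first enzyme of the pair was the higher in 17. Between compartments, Sod2 was lower than Prdx3, the peroxiredoxin of mitochondria, by a log2 ratio of -1.55 ± 0.05 (SD, n = 2), while in the cytosol Sod1 was higher than Gpx1 by 0.95 ± 0.06. Txn1 was lower than Prdx1 by a log2 ratio of -1.66 ± 0.03, which was -0.53 with the length of the principal transcript. Prdx1 exceeded its close relative Prdx2 by 1.13 ± 0.11 (0.48 with the principal length), and Prdx6 exceeded Prdx5 by 0.74 ± 0.02 (0.25 with the principal length). Txn1 exceeded Txnip, whose protein binds and inhibits thioredoxin, by 1.27 ± 0.13 (SD, n = 2).

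The transcript tables held 35 transcripts of the 10 enzymes. Sod1, Sod2, Sod3 and Txn1 had a single transcript each, so their share was fixed at 100%. The other 6 enzymes had several, and in all 6 the same transcript led in both replicates. In 5 of these 6, all but Prdx6, the leading transcript held at least 50% of the gene's TPM in both replicates, as it did in 70.9% of 10287 genes with several transcripts and a mean of 1 TPM or more. Cat-201 and Gpx3-201 took 100% in both replicates.

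Gpx1 was divided almost evenly. Gpx1-204 took 52.6% of the gene's TPM in replicate 1 and 50.5% in replicate 2, and Gpx1-201, the principal transcript, took 46.2% and 49.4%. The leader is thus ahead by a few percent in both replicates. By expected counts, which are not divided by length, Gpx1-201 led with 59.99% and 63.1%. Gpx1-204 has 653 nt, all within the exons of Gpx1-201, so it has no base of its own. All 4 Gpx1 transcripts hold the TGA shown above in their exons, but the coding sequence annotated for Gpx1-204 starts 27 bases after it, in frame, at codon 57 of Gpx1-201. Among the annotated coding sequences, only that of Gpx1-201 includes the selenocysteine codon.

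Gpx4 is known from 3 protein forms, and the codons at which they start are shown because the transcripts differ there. Each line gives the first 90 coding bases, from GENCODE M21 on GRCm38 with ATG codons in the reading frame in capitals.
Gpx4-202: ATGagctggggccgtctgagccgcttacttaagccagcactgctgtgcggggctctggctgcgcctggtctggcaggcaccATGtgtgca
Gpx4-201: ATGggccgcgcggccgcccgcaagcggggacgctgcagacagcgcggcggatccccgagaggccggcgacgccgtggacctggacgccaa
Gpx4-207: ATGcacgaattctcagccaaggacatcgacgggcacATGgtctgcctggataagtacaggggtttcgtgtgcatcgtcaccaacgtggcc
In Gpx4-202, the start at codon 1 gives the mitochondrial form and the start at codon 28 the cytosolic form, so a single transcript in the tables covers both and they could not be told apart. Gpx4-201 opens with another first exon (chr10:80054037-80054300, plus strand), which encodes the basic start of the nuclear form known from sperm. Gpx4-207 begins inside the gene at 80054465 and lacks the first exon of Gpx4-202 (80053488 to 80053715). Its annotated start is in frame at codon 41 of Gpx4-202, downstream of the starts of both the mitochondrial and the cytosolic form, and its selenocysteine codon is kept.

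By these annotations, Gpx4-207 took 63.0% of Gpx4 TPM in replicate 1 and 64.0% in replicate 2, and Gpx4-202 took 35.9% and 34.6%. The nuclear form Gpx4-201 took 0.62% in both replicates. Gpx4-207 led Gpx4-202 in both libraries by expected counts too, with 56.0% against 43.0% in replicate 1 and 57.2% against 41.8% in replicate 2. Of the 735 nt of Gpx4-207, 686 are shared with Gpx4-202, and 49 are its own. Transcripts with the selenocysteine codon in their coding sequence made up 99.3 ± 0.262% of Gpx4 TPM (SD, n = 2), whichever start they carry.

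Prdx1 also had a short leader. Prdx1-201, a fragment of 636 nt whose 3′ end the annotation marks as not found, held 60.9% of the gene's TPM in replicate 1 and 61.3% in replicate 2. Prdx1-204, the principal transcript with 2294 nt (chr4:116685544-116700822, plus strand), took 25.7% and 28.0%. By expected counts the order of these transcripts turned round, with Prdx1-204 at 57.3% and 60.7% and Prdx1-201 at 33.2% and 32.5%. Transcripts that hold the peroxidatic cysteine codon shown above made up 99.4 ± 0.0354% of Prdx1 TPM (SD, n = 2).

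Prdx6 was the exception among the enzymes. Its leader was Prdx6-208, annotated as a target of nonsense-mediated decay, with 49.2% of TPM in replicate 1 and 51.5% in replicate 2. Prdx6-204, a processed transcript with no annotated coding sequence, took 28.6% and 28.2%, and the principal transcript Prdx6-202 took 10.5% and 9.61%. Together, transcripts annotated as protein coding made up 12.8% of Prdx6 TPM in replicate 1 and 12.7% in replicate 2. They stood under 15% in both replicates in 1.66% of 9801 protein-coding genes with several transcripts, and in 7.27% of 8801 such genes the leader was not annotated as coding.

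The exon that sets Prdx6-208 apart is the one with the catalytic codon. Prdx6-208 lacks exon 2 of Prdx6-202 (chr1:161247257-161247413, minus strand, 157 bases), which holds the TGC shown above. Transcripts that keep that codon made up 48.2% of Prdx6 TPM in replicate 1 and 45.5% in replicate 2, and 41.4% and 38.3% of its expected counts. All 1294 bases of Prdx6-208 are shared with Prdx6-202, so it has no base of its own, while 1093 bases of Prdx6-202, exon 2 among them, are missing from Prdx6-208. The last exon of Prdx6-208 ends at 161241015, after 835 bases, and that of Prdx6-202 at 161240112, after 1738 bases. Neither junction reads nor the position of reads along the gene were analysed here, so whether the exon was skipped was not tested.

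**Figure D2:**
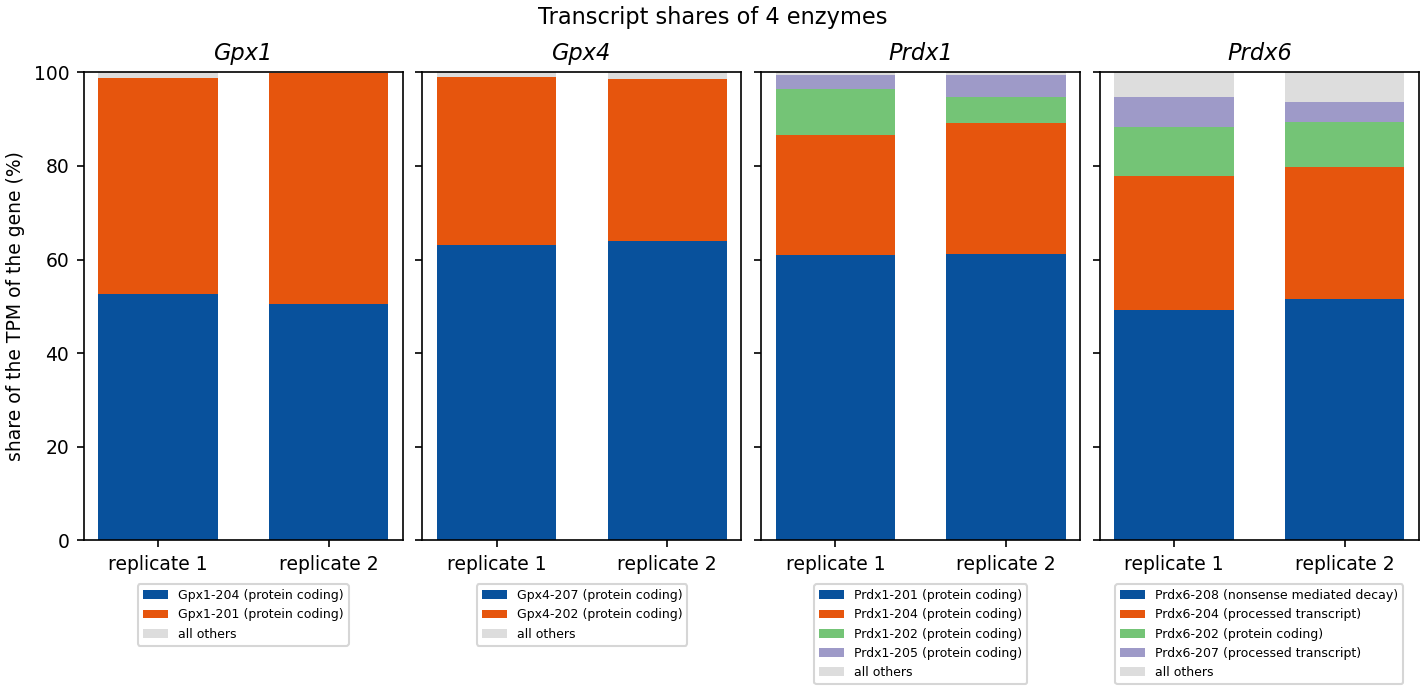
Share of each gene's TPM (percent, axis from 0 to 100) taken by each annotated transcript of Gpx1, Gpx4, Prdx1 and Prdx6 in replicate 1 and replicate 2. Gpx1-204, Gpx4-207, Prdx1-201 and Prdx6-208 form the lowest block in both bars of their gene, and the protein-coding Prdx6-202 takes 10.5% in replicate 1 and 9.61% in replicate 2.

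Near-identical copies elsewhere in the genome could take or lend reads, since shared reads were divided by estimate. Sod1 has a processed pseudogene, Gm8566, with 97.8% identity over 465 bases, whose TPM was 9.33 in replicate 1 and 17.0 in replicate 2. Prdx1 has Gm7204 (97.5% identity, 5.96 and 8.34 TPM) and Gm21399 (98.3% identity, 1.68 and 5.40 TPM), and Txn1 has Txn-ps1 (95.8% identity, 6.20 and 4.63 TPM). The Sod1 copy amounted to 0.860% and 1.51% of Sod1, and the Txn1 copy to 1.56% and 1.25% of Txn1, so adding the copies moved no enzyme beyond its spread. Gpx4 has 2 copies, Gpx4-ps2 with 99.7% identity over 762 bases and AC122253.3 with 95.1% over 535 bases, which were not analysed here, and the level of Gpx4 carries that uncertainty.

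Between the replicates the enzymes differed little. The differences in log2(TPM + 1), with replicate 2 taken from replicate 1, were 0.16 for Gpx3, 0.10 for Txn1 and 0.06 for Prdx1, which were higher in replicate 1. They were -0.26 for Sod3, -0.13 for Gpx1, -0.08 for Gpx4, -0.06 each for Sod1 and Prdx6, and -0.04 each for Cat and Sod2, which were lower in replicate 1. The value of Sod3, a gene near 1 TPM, is shrunk by the added 1, and was -0.47 with 0.1 added instead. None of the 10 reached 2-fold, where 2.67% of 15493 genes with a mean of 1 TPM or more did (0.742% higher and 1.92% lower in replicate 1), so a count of 0 among 10 says nothing particular about the enzymes. Being lower in replicate 1 was the case for 7 of 10 enzymes and for 50.2% of those genes.

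The differences were set beside those of genes of like level. For the 9 enzymes other than Sod3 the median size of the difference was 0.06 on the log2 scale, where it was 0.07 over the 4688 genes between 33.05 and 1217 TPM. In narrower bands the order varied. From 100 to 1000 TPM it was 0.10 for 5 enzymes and 0.07 for 1556 genes. From 10 to 100 TPM it was 0.04 for 2 enzymes and 0.09 for 7597 genes, and from 1000 TPM up 0.06 for 2 enzymes and 0.08 for 102 genes. The difference of Gpx3, 0.16, was exceeded by 17.0% of those genes. That of Sod3 was exceeded by 43.8% of 3641 genes between 0.5 and 2 TPM. The credibility bounds deposited with each TPM value did not overlap between the replicates for 5 enzymes, Prdx1, Gpx1, Gpx4, Txn1 and Gpx3, against 16.6% of genes with a mean of 1 TPM or more and 26.7% of those at 30 TPM or more. Those bounds reflect counting within a library and narrow with depth, so small differences between abundant genes can pass them.

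**Figure D3:**
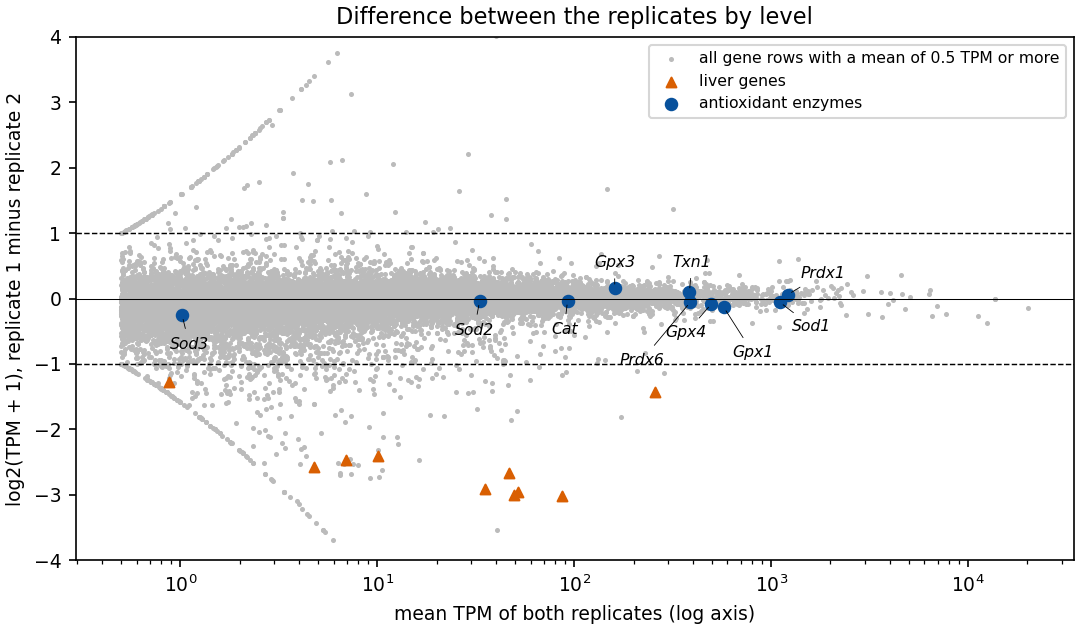
Difference of log2(TPM + 1), replicate 1 minus replicate 2, against mean TPM (log axis) for all gene rows with a mean of 0.5 TPM or more (grey), liver genes (orange triangles) and the antioxidant enzymes (blue circles); dashed lines mark 2-fold, and 4 grey points lie outside the axis. The enzymes lie between -0.26 and 0.16, while the liver genes lie below -1.

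The pools were not alike in all tissues, and these values stand beside the enzyme differences. All 6 genes of the lung lineage list were at 1 TPM or more in both replicates, and among them Sftpc had 10883 and 14172 TPM and Nkx2-1 at 77.0 and 62.6 TPM. Liver genes were lower in replicate 1, with 9 of 9 compared at 2-fold or more (Alb, Afp, Apoa1, Apoa2, Ahsg, Ttr, Serpina1a, Fgb and Trf) and a summed TPM of 202 in replicate 1 and 895 in replicate 2. None of the 10 liver genes was at 0. Skeletal muscle genes summed to 206 and 569 TPM, with 5 of 8 compared (Acta1, Myh8, Tnni2, Tnnt3 and Mylpf) at 2-fold or more lower in replicate 1. Lymphoid and thymus genes summed to 13.2 and 34.1 TPM, with Cd3g, Ptcra and Psmb11, 3 of 5, at 2-fold or more lower in replicate 1. In the erythroid and airway secretory lists 1 gene each passed 2-fold, Klf1 and Scgb3a1, both lower in replicate 1. Type 2 cell genes summed to 11670 and 15142 TPM, with 9 of 10 lower in replicate 1. In the cardiac muscle list 6 of 8 genes were higher in replicate 1, while Sln (62.4 and 117 TPM) and Nppa (102 and 136 TPM) were lower. The sums of that list were 1132 and 931 TPM, of which Myl7 made up 565 and 377 TPM. The sums were 42646 and 49284 TPM for erythroid genes, 1334 and 1838 TPM for airway secretory genes, and 355 and 411 TPM for macrophage genes, all lower in replicate 1. Lung mesenchyme genes summed to 2033 and 2042 TPM, smooth muscle genes to 976 and 906 TPM, and endothelial genes to 879 and 860 TPM. Whether these tissues had a part in the enzyme levels was not tested. In bulk tissue, fewer cells of a type and less RNA per cell cannot be told apart.

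**Figure D4:**
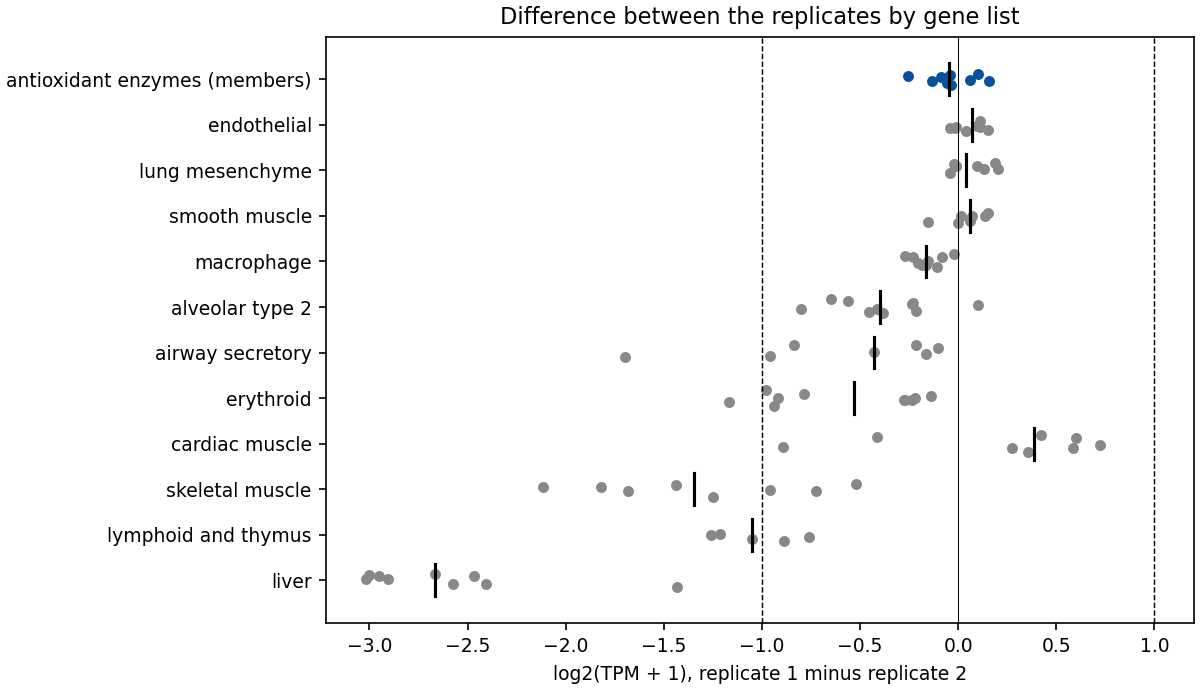
Difference of log2(TPM + 1), replicate 1 minus replicate 2, for each gene of the antioxidant list (blue) and of lists of cell type markers (grey); black bars are list medians and dashed lines mark 2-fold. The enzymes sit around a median of -0.05, and the liver list has a median of -2.67.

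Among the other members of the same families, Prdx2 was the highest, with TPM values of 538 in replicate 1 and 575 in replicate 2, followed by Prdx4 of the endoplasmic reticulum at 307 and 301 TPM. Prdx5 had 226 and 240 TPM, and Prdx3 had 92.8 and 101 TPM. The median of these 9 genes was 96.8 ± 5.66 TPM (SD, n = 2), and 4 of 9 stood at 100 TPM or more in both replicates. Gpx5, known from the epididymis, was at 0 counts in both replicates, and Gpx6, known from the olfactory epithelium, had 1 count in replicate 1 and 0 in replicate 2. For a gene of 1 kb, a count of 0 allows up to 0.127 TPM in replicate 1 and up to 0.180 TPM in replicate 2, by a limit of 3 counts that covers counting error only.

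Lists of related thioredoxin and glutathione genes had lower medians than the enzymes. Not all of their genes supply the enzymes, since the protein of Txnip inhibits thioredoxin. Thioredoxin and glutaredoxin genes had a median of 71.4 ± 7.04 TPM (SD, n = 2) over 12 genes, led by Glrx3 (164 and 160 TPM) and Txnip (154 and 164 TPM). Genes of glutathione synthesis and recycling had a median of 25.1 ± 2.52 TPM over 11 genes, none of which reached 100 TPM in both replicates. The highest of them, Idh1 (99.3 and 101 TPM) and Pgd (90.4 and 96.0 TPM), make NADPH. The median of 14 glutathione transferases was 57.2 ± 5.74 TPM, with Gstp1 at 390 and 389 TPM and Mgst1, a transferase of membranes, at 303 and 349 TPM.

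Genes listed under selenoprotein synthesis were detected, while the seleno-tRNA gene was not analysed here. All 8 measured genes of that list reached 1 TPM in both replicates, and their median was 29.97 ± 0.0354 TPM (SD, n = 2). Reaching 1 TPM is common, as 15493 of 43346 gene rows had a mean of at least that. The median over protein-coding rows was 4.71 TPM in replicate 1 and 5.02 TPM in replicate 2. Highest among the 8 listed genes were Sephs1 (74.5 and 70.9 TPM) and Trnau1ap (56.2 and 56.0 TPM). Among 13 other selenoproteins the median was 94.6 ± 3.40 TPM, and Selenow (634 and 662 TPM) and Selenof (635 and 653 TPM) stood above Gpx1 in both replicates.

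NRF2 is the transcription factor that drives many antioxidant genes. Its gene Nfe2l2, its regulators, Keap1 and Bach1 among them, and its classical targets formed a list of 13 genes. The median of that list was 33.2 ± 4.61 TPM (SD, n = 2). It was led by the ferritin chains Ftl1 (4130 and 4207 TPM) and Fth1 (1750 and 1777 TPM). No gene of these redox lists differed 2-fold between the replicates, and the list medians of the difference lay between -0.17 for glutathione transferases and 0.02 on the log2(TPM + 1) scale. No correlation across samples and no p-value is given, since 2 samples allow an exact two-sided sign-flip p of no less than 0.5.

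**Figure D5:**
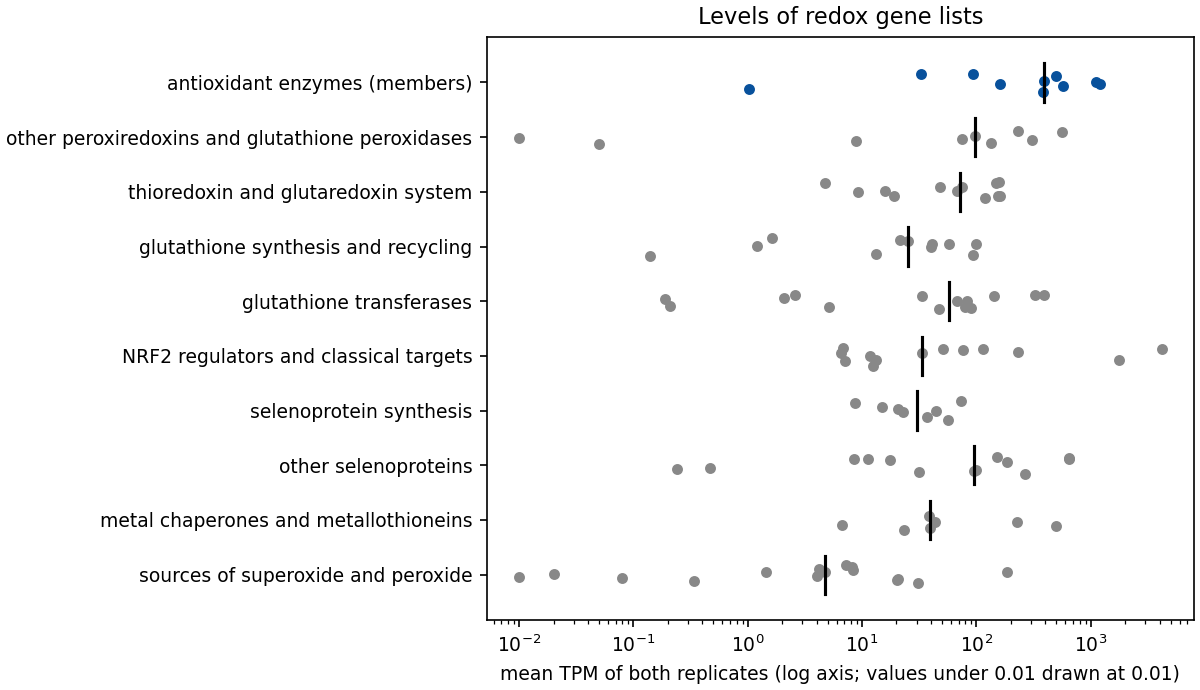
Mean TPM over both replicates (log axis) of each gene in the antioxidant list (blue) and in 9 related redox lists (grey); black bars are list medians. The antioxidant enzymes have a median of 387 TPM, against 96.8 TPM for the other peroxiredoxins and glutathione peroxidases and 4.71 TPM for sources of superoxide and peroxide.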

How the data were processed

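Total RNA-seq of 2 pooled lung samples from embryonic day 16.5 was used from tables of genes and of transcripts. Expected counts, as deposited, estimate the reads per feature and need not be whole; they were made on mm10 with GENCODE M4. Deposited TPM values are lengthwise shares of a library that include the spike-ins (5.16% in replicate 1 and 5.02% in replicate 2). Per the file headers, the percent columns give each transcript's share of its gene's TPM. The score columns deposited beside TPM are credibility bounds, which belong to the posterior mean estimate and can exclude the TPM value itself. The tables have the layout of RSEM. The aligner, the quantifier and the strand setting are not given in the sources used here.

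Symbols, coordinates and sequences came from GENCODE M21 by identifier without version (42462 of 43346 rows matched). Of 35 transcripts, 32 had the same length there; those of Sod1, Sod2 and Sod3 did not. A further 26248 rows with bare numbers were left out. The seleno-tRNA gene on the lists was not analysed here. No exon of another gene overlaps the enzymes' exons. The labels call the samples biological replicates, and they were counted as 2 on that ground. Their counts differed by more than sampling noise (chi-square per degree of freedom 11.4 over 17810 genes), which says only that they are not copies of 1 library.

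The enzymes and gene lists were chosen with earlier results of these data known. All 10 enzymes, their transcripts with a mean share of at least 10%, ratio partners, the 2 highest genes of each redox list and genes at 2-fold are named. For cell type lists, sums are given instead of the 2 highest. Copies were searched with BLAST 2.17.0 at 90% identity or more over at least 250 bases. Scalings used edgeR 4.0.16 and DESeq2 1.42.0 in R 4.3.3 on rounded counts. Other steps used Python 3.11.15 with pandas 2.3.3, NumPy 2.4.6 and SciPy 1.17.1, and matplotlib 3.10.9 drew the plots. Of these steps, only the count of genes past a fold between libraries was tested on simulated data. Alternatives were the pseudocount, the fold, the filter, the scaling, the estimate and leaving out each replicate; the principal transcript length and the added copies were chosen after seeing the data.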

Additional observations from a re-analysis of the deposited data

How the results depend on the processing

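No paired analysis was possible because the samples form a single group. The median level of the enzymes, 387 TPM, was 377 TPM with the posterior mean estimate, 407 TPM without spike-ins, 428 TPM without spike-ins and globins, and 287 TPM with the principal transcript length. It lay between 383.6 and 389.4 TPM when either replicate was left out. The enzymes at 100 TPM or more numbered 7, and 8 without spike-ins and globins. None reached 2-fold under any setting run, 1.5-fold included. Over all genes, 413 differed 2-fold, and 659 with a pseudocount of 0.1, 73 with a mean of 10 TPM or more, 179 with TMM scaling and 172 with DESeq2 size factors; 935 differed 1.5-fold. Of the 20 ratios, 19 held with counts not divided by length, where Txn1 to Txnip was 0.09, and 19 with the principal length, where Gpx4 to Gpx1 was -0.11. The count of enzymes with a transcript at 50% or more in both replicates was 9, of which 4 have a single transcript and were fixed at 100%. Of the 6 with several, 5 reached it, beside 70.9% of 10287 such genes with a mean of 1 TPM or more. The count was 9 to 10 when either replicate was left out. It was 10 by the share of expected counts, where Gpx1-201 and Prdx1-204 were the leaders of their genes. No mean of the 20 ratios changed sign under the settings run, but the order of neighbours did: with the principal length Sod1 stood above Prdx1 by 1.00 and Txn1 above Prdx6 by 1.03 on the log2 scale. Sod3 rests on 76 and 77 expected counts, and the division of reads among overlapping transcripts limits that of Gpx1, Gpx4, Prdx1 and Prdx6.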

Other observations

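Genes that make superoxide or hydrogen peroxide were low beside the enzymes that remove them. Over 15 such genes the median was 4.71 ± 0.24 TPM (SD, n = 2), with 11 at 1 TPM or more in both replicates. Cyba, the membrane subunit shared by several NADPH oxidases, had 177 TPM in replicate 1 and 195 TPM in replicate 2, and Maoa, a monoamine oxidase of the outer mitochondrial membrane, had 30.7 and 30.8 TPM. Genes that guard against ferroptosis or drive it beside Gpx4 numbered 8 and had a median of 16.8 ± 0.336 TPM, with Lpcat3 at 51.0 and 51.9 TPM and Tfrc, the transferrin receptor, at 48.0 and 48.8 TPM. Slc7a11, the cystine transporter that feeds glutathione synthesis, had 0.13 and 0.15 TPM from 18.1 and 22.1 expected counts.

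A list of copper chaperones, metal transporters (Slc31a1, Atp7a and Slc39a14) and metallothioneins had a median of 40.3 ± 3.61 TPM over 7 genes (SD, n = 2). It was led by Atox1 (487 and 502 TPM) and Mt1 (187 and 266 TPM). Mt1 and Mt2 had the lowest differences of the redox lists, with -0.51 for Mt1 and -0.63 for Mt2 in log2(TPM + 1), with replicate 2 taken from replicate 1. Both were under 2-fold. Liver genes, which moved the same way, are given with the pools above, and their part in the metallothionein values was not tested.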
